A study of Mus musculus with 18 samples.

Results

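Rapamycin was compared with free feeding in mouse liver, across every gene whose mean over the 5 group columns of the authors' deposited table was at least 10. This level kept 11201 of the 12019 genes in that table. The study sequenced poly(A)-selected RNA from minced whole livers, perfused with saline, of C57BL/6J mice that spent 8 weeks on an intervention from 21 weeks of age. The rapamycin group, 3 libraries by the labels, ate chow with the drug at 42 mg/kg/day, and the control group, 6 libraries by the labels, ate ad libitum without a compound. The other groups, used below only for values set side by side, had 3 libraries each: metformin at 37.5 mg/kg/day, TM5614 at 20 mg/kg/day and 30% caloric restriction. All groups carry the genotype C57BL6 in the labels, with no engineered allele named; sex, time of collection, feeding state at collection and measured drug level are not given in the labels. The design text speaks of 30 mice, whereas 18 libraries are labelled.

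Rapamycin is a macrolide that binds the small protein FKBP12 (gene Fkbp1a), and the pair then blocks the kinase mTOR in its first complex, mTORC1, whose scaffold is Raptor. Insulin and amino acids activate mTORC1, which promotes protein, lipid and nucleotide synthesis and restrains autophagy and lysosome formation. Much of this control acts on proteins rather than on transcript levels, and long exposure can also reduce the assembly of the second complex, mTORC2, whose scaffold is Rictor. In hepatocytes mTORC1 is known to restrain the fasting receptor PPAR alpha and to promote lipid synthesis through SREBP1.

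The deposited values are means per group, in normalized counts, that is, read counts divided by a size factor of the library. They are not scaled by transcript length, so levels are compared within a gene only. The means carry 10 digits, and each of the 6553 control means and 6499 rapamycin means of 150 or less that were examined was a sum of whole reads from 3 libraries. The control mean therefore rests on 3 libraries rather than the 6 labelled, and which 3 is not known. Solving these sums gave the count in each library for 7924 genes, 70.7% of the genes compared, limited to means of at most 500. The libraries are called A, B and C in order of their size factor (1.06, 0.986 and 0.952 in the control, 1.04, 1.03 and 0.999 under rapamycin), and these letters are not the replicate numbers of the labels. Nothing in the labels says which libraries came from separate mice, so every p-value measures the spread between these libraries.

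The material was liver in both groups. Albumin (Alb), the main secreted protein of hepatocytes, had group means of 606485 (control) and 557685 (rapamycin) normalized counts by the authors' deposited table. None of the listed markers of T and NK cells or of B and plasma cells reached a mean of 10. Rapamycin library A held 22 genes at 8-fold or more above both other rapamycin libraries and at 50 or more. Among them were Cxcl10, Ier3 and Ripk2, cytokine-induced genes given below. Library B held 0 such genes and library C held 0. Control library A held 5 such genes, against 3 in library B and 1 in library C, among them the pancreatic protease precursors Ctrb1 (227 normalized counts in A, 0 in B and 0 in C) and Cela2a (212, 4.06 and 10.5) and the macrophage receptor Marco (734, 22.3 and 28.4). It was the highest of the 6 libraries for 10 of 10 resolved Kupffer cell markers and 14 of 15 sinusoidal endothelial markers, against 19.1% of all resolved genes.

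Few genes differed between the groups by the authors' test. With the DESeq2 adjusted p of the authors' deposited table below 0.05, 74 genes rose (0.714% of the 10369 genes with an adjusted p) and 70 fell (0.675%), 1.39% in all. Every count of called list members below is to be read beside these shares. Of the raised genes 17, and of the lowered genes 25, differed by 1 or more as log2. Over all 11201 genes the median log2 fold change was 0.01, with 90% of genes between -0.58 and 0.47. Of the 11201 genes, 832 carry no adjusted p and can be neither called nor called unchanged.

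A test on the resolved libraries did not reach these calls after correction. In limma, on log2 of the normalized count plus 1, 0 genes were raised and 0 lowered among 7924 at a Benjamini-Hochberg adjusted p under 0.05, while 296 and 457 had an unadjusted p under 0.05. Of the authors' 144 calls, 60 could be resolved; all 60 had the same direction in limma and 59 had an unadjusted p under 0.05, and the smallest limma adjusted p was 0.108, as for Dbp. In 59 of these 60 calls the 3 rapamycin libraries lay wholly above or wholly below the 3 control libraries, as they did in 15.2% of all resolved genes. The library counts were derived from the same group means as the calls, so these matches are no independent check of the calls. All rapamycin libraries lay above in 6.2% of resolved genes and below in 9.01%. Words such as rose and fell refer below to the authors' adjusted p.

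**Figure D1:**
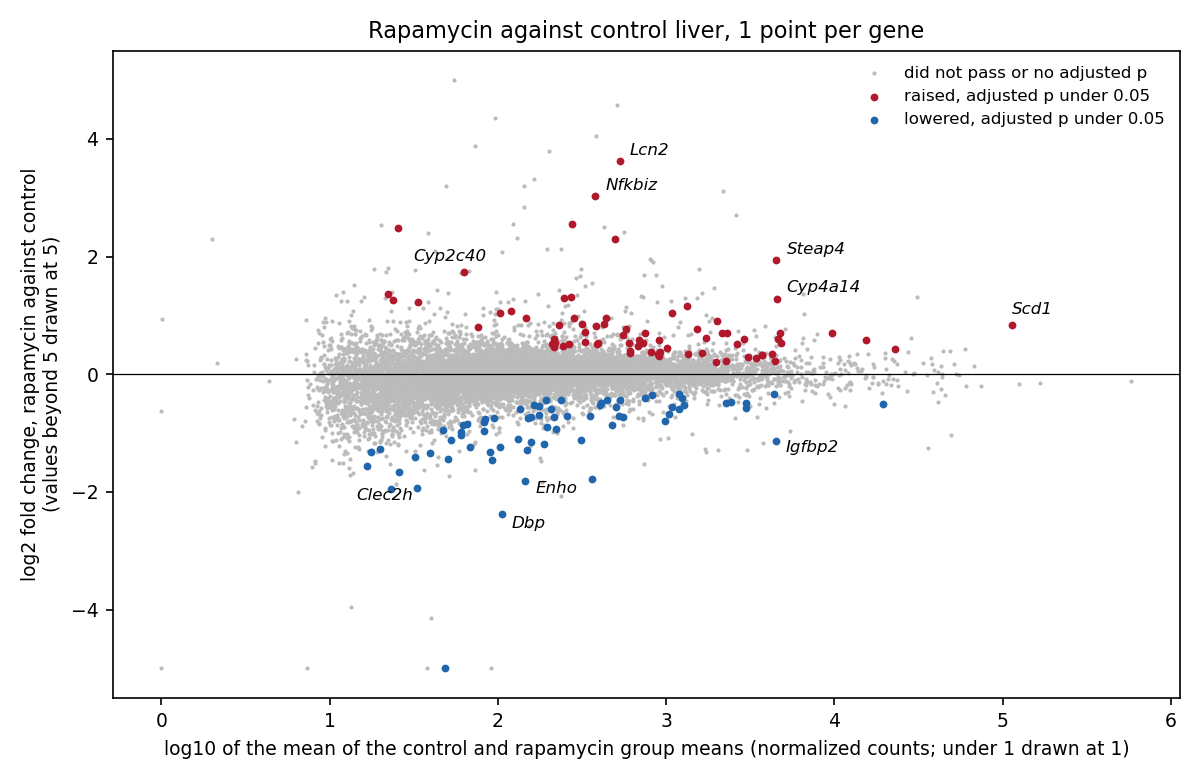
Each point is a gene with a mean of at least 10, with the log10 mean of the control and rapamycin groups across and the log2 fold change upward, and coloured points passed the authors' adjusted p of 0.05. The 74 raised and 70 lowered genes lie on both sides of a cloud centred on 0.01, and the highest raised points are Lcn2 and Nfkbiz.

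The genes of the mTOR pathway did not pass the test. None of the 42 mTOR complex genes and regulators was called, and their median log2 fold change was -0.04, beside 0.01 over all genes. The authors' deposited table gives Mtor itself a control mean of 397 and a rapamycin mean of 528 normalized counts (0.41 as log2 fold change, adjusted p = 0.116). Fkbp1a, the receptor of the drug, had 435 and 496 (0.19, adjusted p = 0.417) by the authors' deposited table. The scaffolds differed little by the authors' deposited table, with -0.01 for Rptor (adjusted p = 0.992) and 0.20 for Rictor (adjusted p = 0.784). Deptor, an inhibitory subunit, had a log2 fold change of -0.05, and Eif4ebp1, a translation repressor phosphorylated by mTORC1, one of -0.18 by the authors' deposited table. Among the rest, Fnip2, a regulator of lysosomal nutrient sensing (-0.66, adjusted p = 0.124), and Nprl3, a subunit of the GATOR1 brake on mTORC1 (0.67, adjusted p = 0.101), lay farther from 0 by the authors' deposited table without passing. Ddit4, a stress-induced mTORC1 inhibitor, ran from 49.4 to 617 over the control libraries and from 26.2 to 471 over the rapamycin libraries, so its spread within each group exceeded the difference.

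Transcripts of the processes that mTORC1 drives likewise gave no call, with list medians between -0.05 and 0.12. None of 84 cytosolic ribosomal protein genes (median -0.05), 41 translation factors (0.09), 45 ribosome biogenesis genes (0.12), 25 nucleotide synthesis genes (0.03), 20 aminoacyl-tRNA synthetases (0.11) or 25 targets of the amino acid response factor ATF4 (0.00) was called. Of these, 3 ATF4 targets and 1 nucleotide synthesis gene had no adjusted p. Values above 0 were held by 34 of the translation factors, 32 of the ribosome biogenesis genes and 17 of the synthetases, beside 51.3% of all genes. They were held by 16 of the nucleotide synthesis genes, 13 of the ATF4 targets and 17 of the ribosomal protein genes, with 67 of the last below 0. Cad, the enzyme that starts pyrimidine synthesis, held 61.5, 83.2 and 54.6 normalized counts in the control libraries and 85.6, 86.5 and 79.1 under rapamycin, and the groups overlapped. Trib3, a kinase-like ATF4 target, had values of 68.1, 116 and 32.6 against 56.7, 31.1 and 38. Asns, the asparagine synthetase gene, held 53.9, 40.6 and 91.4 in the control libraries and 170.2, 67.1 and 19 under rapamycin. The 3 rapamycin libraries of Asns thus ran from below to above all control libraries. No call was made among 37 proteasome subunits (median 0.04), 76 mitochondrial ribosomal proteins (-0.02) or 78 respiratory chain subunits (0.04).

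On the degradation side, 1 of 37 autophagy genes and 3 of 42 genes of lysosomes and of TFEB, the transcription factor that drives them, fell, and none rose. Of all tested genes 0.675% fell. Gabarapl1, an autophagosome membrane protein, went from 3472 to 2470 normalized counts by the authors' deposited table (-0.49 as log2 fold change, adjusted p = 0.0136). Naglu, which degrades heparan sulfate, held 256, 276 and 215 against 175, 166 and 156, without overlap (-0.59, adjusted p = 0.00756, from the authors' deposited table). Atp6v1b2, a subunit of the proton pump that acidifies lysosomes, stood at a log2 fold change of -0.48 (adjusted p = 0.0395) by the authors' deposited table. The list's median was -0.10, and 5 of its 15 resolved members lay lower in all rapamycin libraries, beside 9.01% of all resolved genes. Tfeb (0.06), the autophagy kinase gene Ulk1 (-0.08) and the cargo receptor gene Sqstm1 (0.25) did not pass by the authors' deposited table.

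**Figure D2:**
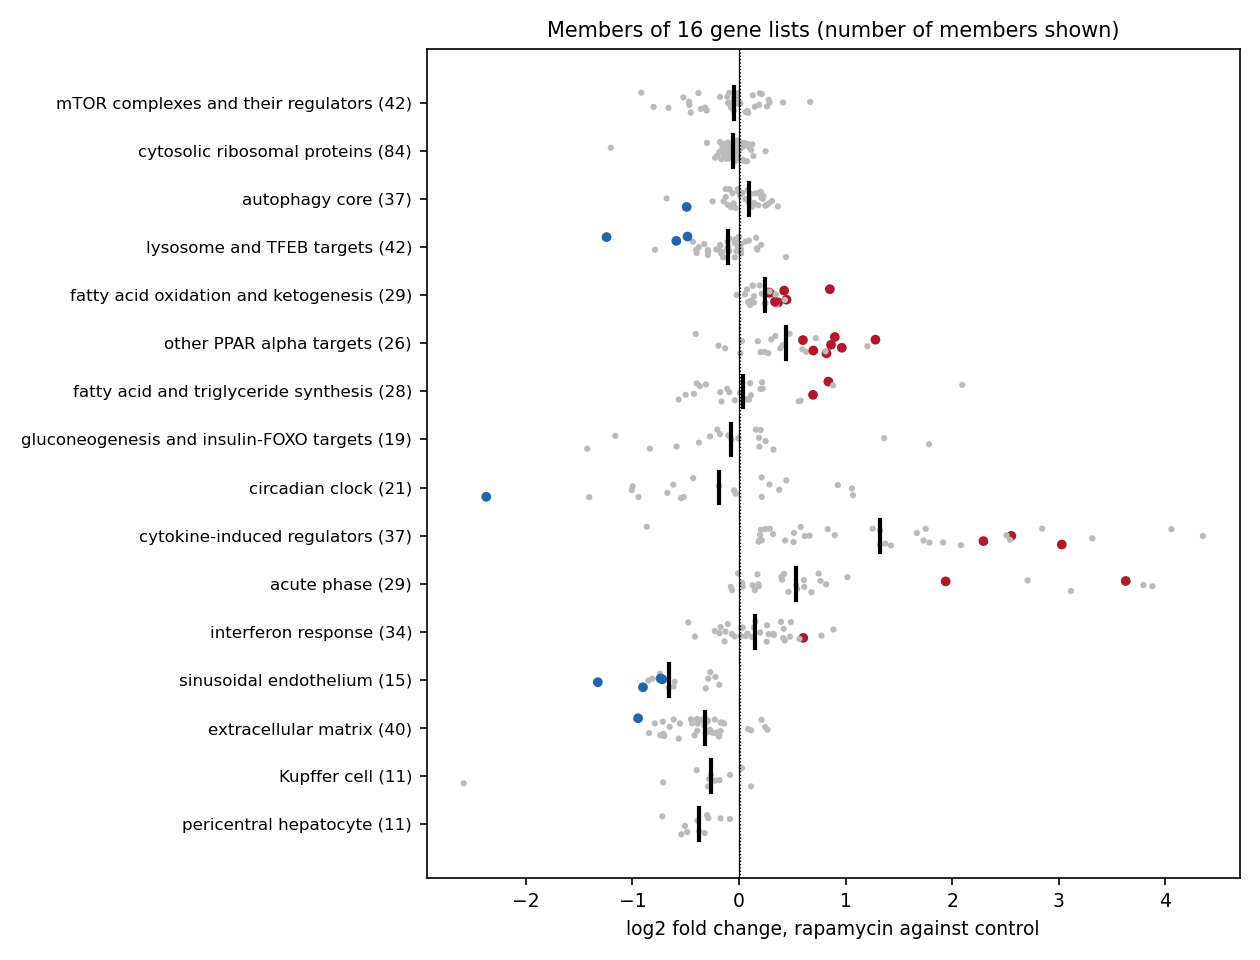
Each row is a gene list and each point a member's log2 fold change from the authors' deposited table, with large red and blue points for members called raised and lowered, a black bar at the list's median and a dotted line at the median of all genes. The fatty acid oxidation and PPAR alpha lists hold called members in the raised direction only, and the sinusoidal endothelium list lies wholly below 0.

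Genes of fatty acid oxidation and other targets of PPAR alpha included 13 rises and no fall. Of 29 genes of mitochondrial and peroxisomal fatty acid oxidation and ketogenesis, 6 rose and none fell, with a median log2 fold change of 0.24 and 28 of 29 values above 0. Of 26 other targets of PPAR alpha, 7 rose and none fell, with a median of 0.44. Beside these shares stands the 0.714% of all tested genes that rose. No member of the oxidation list was among the 7924 genes resolved by library, so these counts rest on the authors' deposited table; Crat alone of its called members could be split at a higher mean, as given below. Of the other PPAR alpha targets 11 were resolved, of which 2 lay higher in all rapamycin libraries, beside 6.2% of all resolved genes, and none lower. Their median log2 ratio was 0.23, and it depended on single libraries, with 0.01 without control library C, 0.08 without rapamycin library C and 0.70 without control library B.

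Among the enzymes, Crat, which moves acyl groups between carnitine and coenzyme A, rose from 304 to 549 normalized counts by the authors' deposited table (0.85, adjusted p = 0.00969). Only 1 division into whole reads was possible for Crat: its rapamycin libraries held between 526 and 588 and its control libraries between 231 and 414. Slc25a20, the mitochondrial carnitine-acylcarnitine carrier, rose by 0.45 (adjusted p = 0.0211) per the authors' deposited table. Smaller rises were those of Decr1 (0.37, adjusted p = 0.0131), Hsd17b4 (0.34, adjusted p = 0.00587) and Hadha (0.29, adjusted p = 0.00807), all by the authors' deposited table. Cpt1a, which admits fatty acids to mitochondria, did not pass (0.28, adjusted p = 0.551, from the authors' deposited table).

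Among the PPAR alpha targets the microsomal omega-hydroxylase Cyp4a14 rose most, from 2648 to 6428 normalized counts by the authors' deposited table (1.28, adjusted p = 0.00817). Its neighbour Cyp4a10 went from 1395 to 2601 (0.90, adjusted p = 0.0496) by the authors' deposited table; both belong to a family of very similar genes, and how reads fall among them is uncertain. Vnn1, a pantetheinase, held between 565 and 593 in the rapamycin libraries and between 245 and 385 in the control libraries (0.96, adjusted p = 0.0495, from the authors' deposited table). Pex11a, which divides peroxisomes (0.86, adjusted p = 0.00956), Acot1, an acyl-CoA thioesterase (0.82, adjusted p = 0.0361), Cd36, a fatty acid transporter (0.70, adjusted p = 0.0433), and Aldh3a2, a fatty aldehyde dehydrogenase (0.60, adjusted p = 0.0293), rose too by the authors' deposited table. Acot2 did not pass, yet its 3 rapamycin libraries (70.2, 82.6 and 94.1) lay above its control libraries (54.8, 41.6 and 44.1). Fgf21, a fasting hormone under PPAR alpha, held 12.3, 19.3 and 8.4 against 6.73, 13.6 and 32, and has no adjusted p.

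Against the other interventions, which share the control, each of the 12 called genes named had a lower log2 fold change under metformin and under TM5614 than under rapamycin. The 12 were picked by their calls under rapamycin, so lower values in groups sharing its control follow in part from that choice. Cyp4a14 had -0.66 under metformin (adjusted p = 0.729), 0.59 under TM5614 (adjusted p = 0.294) and 2.46 under caloric restriction (adjusted p = 1.93e-13) by the authors' deposited table. The median of the oxidation list was 0.24 under rapamycin, -0.03 under metformin, -0.01 under TM5614 and 0.14 under restriction. For the other PPAR alpha targets the medians were 0.44, -0.09, 0.14 and 0.98 in that order. Measured against the mean of the metformin and TM5614 groups instead of the control, the rapamycin medians were 0.25 and 0.47. The differences between interventions were not tested. The PPAR alpha response element, a pair of half-sites in direct repeat (DR1), matched none of the 25 promoters found for the targets and none of the 24 found for the oxidation list, in windows where 0.356% of all promoters hold a match. These promoters belonged to 19 of the 26 targets and 22 of the 29 oxidation genes. No promoter was found for Cyp4a14, Cyp4a10, Vnn1, Crat, Decr1 or Hsd17b4. At so low a background so few promoters would rarely hold a match, so no conclusion is drawn from its absence.

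**Figure D3:**
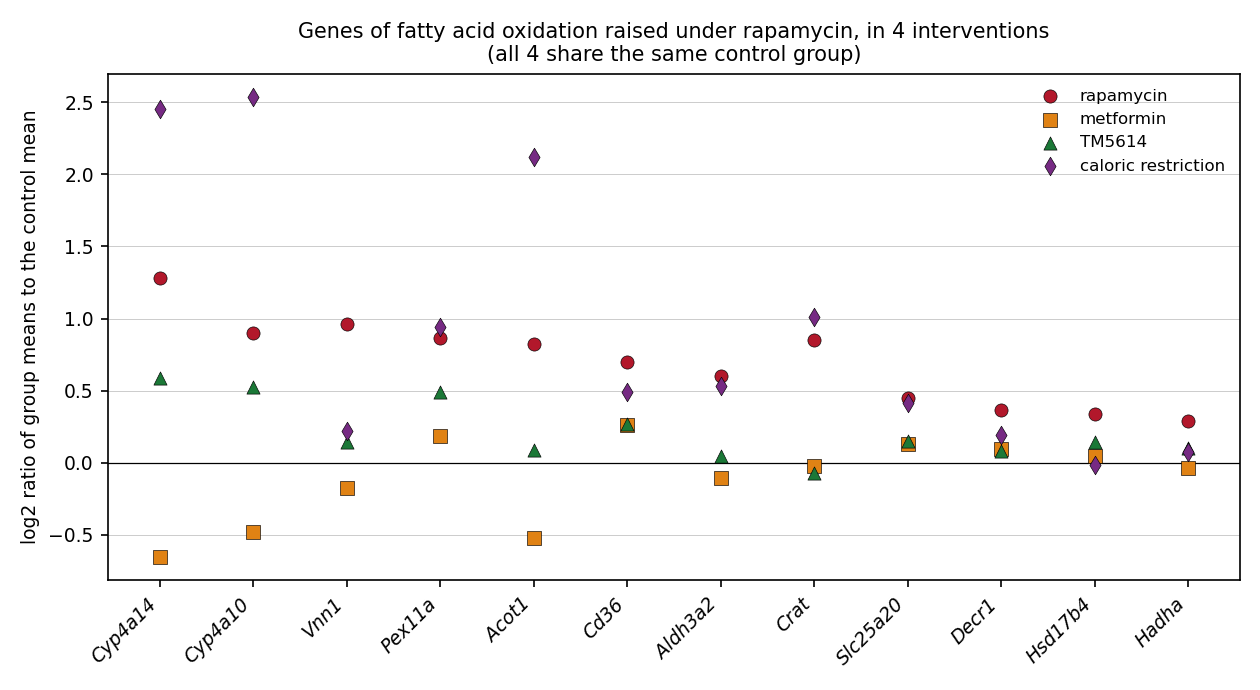
For 12 genes of the fatty acid oxidation and PPAR alpha lists that rose under rapamycin, points give the log2 ratio of each intervention's group mean to the shared control mean. The red rapamycin points all lie above 0 because the genes were picked as raised there. The metformin points of Cyp4a14, Cyp4a10, Vnn1 and Acot1 are among those below 0.

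Lipid synthesis showed rises in 2 of 28 genes, beside 0.714% of all tested genes. Scd1, which desaturates stearate, rose from 81821 to 146272 normalized counts by the authors' deposited table (0.84, adjusted p = 0.0433). Me1, malic enzyme, which supplies NADPH, rose from 3649 to 5904 (0.69, adjusted p = 0.0421) by the authors' deposited table. The central synthase Fasn (-0.31, adjusted p = 0.685) and the gene of SREBP1, Srebf1 (-0.50, adjusted p = 0.526), did not pass by the authors' deposited table, and the list's median was 0.04. No gene of cholesterol synthesis and uptake passed (26 genes, median 0.00). Pltp, which transfers phospholipids between lipoproteins, rose from 817 to 1832 (1.17, adjusted p = 0.0126), and Apom, an apolipoprotein of high-density lipoprotein, fell from 1280 to 799.7 (-0.68, adjusted p = 1.45e-05), both by the authors' deposited table. For caloric restriction against the same control, the authors' deposited table gives Scd1 -1.28 (adjusted p = 3.85e-06) and Pltp -1.70 (adjusted p = 3.23e-07).

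Genes of glucose production and of insulin signalling did not pass the test. None of 19 was called, with a median of -0.07. Pck1, the gluconeogenic carboxykinase gene, stood at a log2 fold change of -0.10 (adjusted p = 0.958) and G6pc, which releases glucose, at -1.16 (adjusted p = 0.15) by the authors' deposited table. Ppargc1a, a coactivator of the fasting response, had -0.84 (adjusted p = 0.412) by the authors' deposited table. Igfbp1, an insulin-repressed binding protein of insulin-like growth factors, had 1.36 (adjusted p = 0.594) by the authors' deposited table. Irs2, an adaptor of the insulin receptor, held 70, 219 and 130.2 in the control libraries and 1097, 244 and 101 under rapamycin, so rapamycin library A alone lay above the rest by a wide margin. Foxo3, a fasting transcription factor, held 179, 500.1 and 104 against 141, 100.1 and 50. Ldha, lactate dehydrogenase A, rose by 0.71 (adjusted p = 0.0293), the only call among 30 genes of glycolysis and glycogen by the authors' deposited table.

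Among genes of secreted hormones and binding proteins, Igfbp2 and Enho fell. Igfbp2, which binds insulin-like growth factors, went from 6161 to 2822 normalized counts by the authors' deposited table (-1.13, adjusted p = 0.000801), and Igf1 itself did not pass (0.22, adjusted p = 0.537). Enho, which encodes the metabolic peptide adropin, held 220.3, 227 and 234 in the control libraries and 128, 41.8 and 24 under rapamycin. The control libraries were nearly equal, and each rapamycin library lay below them (-1.81, adjusted p = 0.00398, from the authors' deposited table). Among 48 genes of the urea cycle and amino acid breakdown, none rose and 3 fell: Prodh, proline dehydrogenase (-0.60, adjusted p = 0.00514), Agxt, which detoxifies glyoxylate (-0.47, adjusted p = 0.00398), and Ivd, of leucine breakdown (-0.41, adjusted p = 0.0022), all by the authors' deposited table. Agxt was also lower in the metformin and TM5614 groups, and against the mean of those groups its log2 value under rapamycin was 0.16.

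Clock genes included several whose groups did not overlap in any library. The circadian clock is a loop in which BMAL1 (gene Arntl) and CLOCK drive the Per and Cry repressors through E-boxes, while ROR and REV-ERB act on Arntl through ROR elements and DBP acts through D-boxes. Dbp (chromosome 7, 45705088 to 45710203, GENCODE vM21 on GRCm38) held 187, 243 and 101 normalized counts in the control libraries. Under rapamycin it held 33.7, 33.1 and 36, and it was the only 1 of 21 clock genes to be called (-2.37, adjusted p = 0.00787, from the authors' deposited table). Leaving out rapamycin library A gave a log2 ratio of -2.33.

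Other clock genes were shifted without passing the test. Arntl held 54.8, 77.1 and 65.1 in the control and 117, 134 and 159 under rapamycin, with no overlap (1.06, adjusted p = 0.65, from the authors' deposited table). Its metformin libraries held 137, 6.69 and 15.5, so the gene spread widely within another group of the same table. Cry1 (42.5, 54.8 and 98.7 against 127, 127 and 117) and Clock (247, 305 and 297 against 382, 455 and 318) were also higher in all rapamycin libraries. Per2 (48.2, 94.3 and 42 against 32.7, 28.2 and 31) and Per3 (18.9, 32.5 and 21 against 11.5, 11.7 and 13) were lower in all of them. Of the 13 resolved clock genes, 3 lay wholly higher and 3 wholly lower, beside 6.2% and 9.01% of all resolved genes. Per1 (-0.94, adjusted p = 0.185) and the REV-ERB gene Nr1d1 (0.38, adjusted p = 0.704) missed the threshold by the authors' deposited table. The labels give no collection time, so a difference in the hour of collection and a difference caused by the drug cannot be told apart.

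Promoters of the clock list were searched after these values were seen, from 250 bases before to 50 after each RefSeq start (GRCm38.p6), on both strands. Among 24 promoters of 16 members, the E-box CACGTG was in 5 (20.8%, against 7.15% of all 32851 promoters), the D-box TTANGTAA in 1 (4.17%, against 2.32%) and the ROR element in 2 (8.33%, against 0.731%). The list was written by hand from clock genes, so an excess of these motifs follows in part from its composition. The promoters found for Dbp and Clock, which also lay apart in all libraries, held none of these motifs. The following are shown because their genes lay apart in all libraries and held a match, with the motif in capitals: 250 bases before the start of Cry1 with an E-box (chr10:85185055-85185304, minus strand), 250 bases before the start of Per3 with both its D-boxes (chr4:151044666-151044915, minus strand), and 30 bases around the ROR element just after the second Arntl start (chr7:113207527-113207556, plus strand).
Cry1: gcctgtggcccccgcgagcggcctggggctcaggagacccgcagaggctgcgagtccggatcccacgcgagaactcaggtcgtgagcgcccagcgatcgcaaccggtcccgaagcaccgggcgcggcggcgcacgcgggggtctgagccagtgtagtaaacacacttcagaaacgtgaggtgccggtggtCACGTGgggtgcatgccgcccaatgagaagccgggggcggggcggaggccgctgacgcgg
Per3: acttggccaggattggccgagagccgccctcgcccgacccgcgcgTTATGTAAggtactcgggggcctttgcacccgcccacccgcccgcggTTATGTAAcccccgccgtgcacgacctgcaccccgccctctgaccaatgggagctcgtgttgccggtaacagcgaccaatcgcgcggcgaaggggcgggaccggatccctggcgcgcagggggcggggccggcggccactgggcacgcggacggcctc
Arntl: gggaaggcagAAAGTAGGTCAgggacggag
A match describes these letters only and says nothing of binding.

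**Figure D4:**
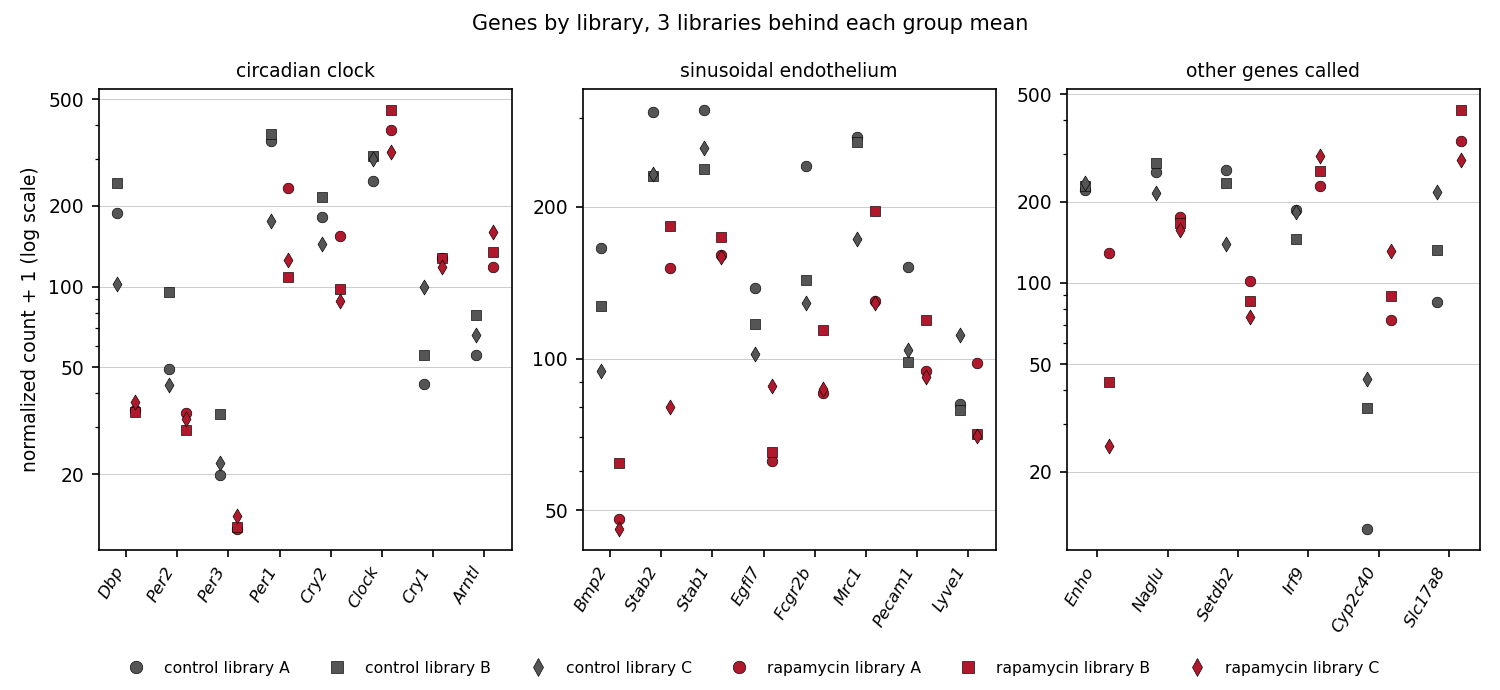
Normalized counts plus 1 on a log axis are shown for each of the 3 libraries behind the control mean (grey) and the rapamycin mean (red), for clock genes, sinusoidal endothelial markers and other called genes. For Dbp the rapamycin libraries lie between 33.1 and 36, below all control libraries, and for Arntl they lie above them.

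Markers of the liver sinusoidal endothelium, the cells that line the hepatic capillaries, were lower. Of 15 markers, 4 fell, beside 0.675% of all tested genes, and none rose. All 15 values lay below 0 and the median log2 fold change was -0.66, beside 0.01 over all genes. Bmp2, which the endothelium secretes to induce hepcidin in hepatocytes, held 165, 126 and 93.5 in the control and 47.1, 61.2 and 45 under rapamycin (-1.32, adjusted p = 0.00233, from the authors' deposited table). The scavenger receptor Stab1 held 310.1, 237 and 260.5 against 159.7, 173 and 158 (-0.72, adjusted p = 0.00756, from the authors' deposited table). Its paralogue Stab2 held 307, 229 and 231 against 150, 182 and 79.1 (-0.90, adjusted p = 0.0293, from the authors' deposited table). Egfl7, an endothelial secreted factor, held 137, 116 and 101 against 61.6, 64.2 and 87.1 (-0.74, adjusted p = 0.0463, from the authors' deposited table). None of these 4 genes had a control library at or below a rapamycin library.

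The Fc receptor gene Fcgr2b and the lectin gene Clec4g were also lower in all rapamycin libraries, which made 6 of the 15, beside 9.01% of all resolved genes. Pan-endothelial Pecam1 (151, 97.4 and 103 against 93.3, 118 and 91.1) and the hyaluronan receptor gene Lyve1 (80.4, 78.1 and 110.3 against 97.1, 70 and 69.1) overlapped. The summed markers ran from 2351 to 3554 normalized counts in the control libraries and from 1525 to 2243 under rapamycin. Control library A was the highest; without it the median was -0.54, and without rapamycin library A it was -0.63. Against the mean of the metformin and TM5614 groups it was -0.36; metformin had a median of -0.45 against the shared control. In RNA from whole liver, fewer endothelial cells and less of these transcripts per cell cannot be told apart.

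Stellate cells, which store retinol and make matrix, had a median of -0.17 over 14 markers. The retinol esterase gene Lrat overlapped between groups (97.4, 98.4 and 104 against 68.3, 111 and 69.1). Of 40 extracellular matrix genes 1 fell, the collagen-binding proteoglycan gene Lum (70.9, 58.8 and 56.7 against 24, 41.8 and 31; adjusted p = 0.0469, from the authors' deposited table). Lum included, 35 of the 40 matrix genes had values below 0 (median -0.32), and 11 of 30 resolved ones lay lower in all rapamycin libraries, beside 9.01% of all resolved genes, and none higher. Among them the collagen genes Col1a1 (112, 119.7 and 101 against 36.5, 79.7 and 88.1) and Col6a1 (93.6, 99.4 and 95.6 against 49, 71.9 and 52), named here after their values were seen, did not pass.

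Kupffer cells, the resident macrophages, gave no call among 11 markers, and the sign of their median depended on control library A. It was -0.27 over the 10 resolved markers and 0.21 without that library. Pericentral hepatocyte genes, of the zone around the central vein, all had values below 0 (11 genes, median -0.37) and none passed. Among them Cyp1a2 had -0.72 (adjusted p = 0.0655), Oat -0.49 (adjusted p = 0.509) and Gulo -0.37 (adjusted p = 0.202) by the authors' deposited table. One periportal gene, Aldh1b1, a mitochondrial aldehyde dehydrogenase, fell from 425 to 197 (-1.11, adjusted p = 0.00756, from the authors' deposited table), and that list's median was -0.10. Cela1, an elastase made by pancreas and other tissues, fell too (242, 109 and 85.1 against 66.4, 69 and 50; adjusted p = 0.0395, from the authors' deposited table). It stood beside the pancreatic transcripts of control library A; without that library its log2 ratio went from -1.22 to -0.64. Dmbt1, a mucin-like receptor also called lower, was at 289 in control library A and at 0 in the other 5 libraries.

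Enzymes that modify foreign compounds and steroids changed in several families. Of 35 P450 genes of families 1 to 3, 3 rose, all in the Cyp2c family, beside 0.714% of all tested genes. Cyp2c40, which is higher in female liver, held 11.3, 33.5 and 43.1 in the control and 72.1, 88.5 and 130.1 under rapamycin (1.73, adjusted p = 0.00365, from the authors' deposited table). Cyp2c69 held 9.45, 11.2 and 22.1 against 26, 36 and 39 (1.25, adjusted p = 0.0305, from the authors' deposited table). Cyp2c38 rose from 193 to 375 (0.96, adjusted p = 0.000215, from the authors' deposited table). These genes have near-identical relatives, so their reads are uncertain. The main drug-metabolising gene Cyp3a11, named after its value was seen, gave no call.

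Of 34 conjugation and export genes 3 rose and 2 fell, beside 0.714% and 0.675% of all tested genes. Ugt1a5 rose from 713 to 1460 (1.03, adjusted p = 0.000327) while Ugt1a1 fell (-0.34, adjusted p = 0.0383), by the authors' deposited table; the genes of that locus share their last exons, so reads cannot be divided with certainty. Ephx1, microsomal epoxide hydrolase, rose by 0.54 (adjusted p = 0.00587) and Ugt2b34 by 0.32 (adjusted p = 0.0304) by the authors' deposited table. Sult1c2, a sulfotransferase, held 37.8, 32.5 and 39.9 against 6.73, 6.8 and 15 (-1.96, adjusted p = 0.000801, from the authors' deposited table). Of 20 glutathione S-transferases 2 rose, Gstm1 (0.58, adjusted p = 0.000215) and Gstm3 (0.77, adjusted p = 0.039), by the authors' deposited table. Of 22 other targets of the antioxidant factor NRF2, 2 rose, Entpd5 (0.51, adjusted p = 0.0141) and Gsr, glutathione reductase (0.34, adjusted p = 0.0395), and 20 of the 22 values lay above 0 (median 0.24), by the authors' deposited table.

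The female-biased list had 2 calls among 12 genes, the raised Cyp2c40 and Cyp2c69, beside 0.714% of all tested genes raised. Its median was 0.56, and 4 of its 12 resolved genes lay higher in all rapamycin libraries, beside 6.2% of all resolved genes. The resolved median was 0.39, or 0.13 without rapamycin library C. The male-biased list had a median of -0.37 over 21 genes and 1 call, Nudt7, a peroxisomal coenzyme A diphosphatase (-0.57, adjusted p = 0.00991, from the authors' deposited table). Only 3 male-biased genes were resolved, and their median of -0.96 became 0.06 without control library B. Under caloric restriction the medians of these lists were 4.24 and -2.75 against the shared control. Bile acid genes gave no call among 21; Cyp7a1, which starts bile acid synthesis, had -0.73 (adjusted p = 0.841) by the authors' deposited table.

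Genes induced by cytokines and NF-kappaB had large log2 fold changes, few of which passed the test, and most of the resolved members were highest in 1 rapamycin library. Of 37 cytokine-induced regulators 3 rose and 7 had no adjusted p; the median log2 fold change was 1.32, the highest of the lists of at least 3 genes. Cxcl10, a chemokine, held 10.4, 6.09 and 10.5 in the control and 517, 17.5 and 16 under rapamycin. The early-response gene Ier3 held 38.8, 28.4 and 22.1 against 867, 12.6 and 9.01. Rapamycin library A was thus far above the other 5 libraries, and libraries B and C lay near or below the control for Ier3.

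Further members had the same form. The NF-kappaB subunit genes Relb (46.3, 16.2 and 29.4 against 257, 34 and 19) and Nfkb2 (90.8, 91.3 and 101 against 333, 90.4 and 80.1) were high in library A only. So were the kinase gene Ripk2 (39.7, 26.4 and 38.9 against 693, 31.1 and 29), the RNase gene Zc3h12a (45.4, 27.4 and 49.4 against 423, 41.8 and 52) and the apoptosis inhibitor gene Birc3 (92.7, 88.2 and 75.6 against 449, 97.2 and 65), all named after their values were seen. Library A was the highest of 6 for 16 of the 18 resolved members, against 15.1% of all resolved genes. The median log2 ratio of these 18 was 1.37 with library A and -0.09 without it.

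The 3 calls in this list had several possible divisions into whole reads. Library A was the highest rapamycin library in each division for Pim1, in 1 of 2 for Nfkbiz and in 2 of 4 for Irf1. Whether the rises of Nfkbiz and Irf1 lay mainly in library A is therefore not known. Nfkbiz, a nuclear NF-kappaB regulator (chromosome 16, 55811375 to 55838899), had 103, 77.7 and 66.9 as its control values. Its highest rapamycin library held between 1482 and 1813, the middle one between 127 and 278 and the lowest between 81.1 and 262 (3.03, adjusted p = 0.0242, from the authors' deposited table). For the kinase gene Pim1 the highest rapamycin library, which was library A in each division, held between 902 and 1104 and the lowest between 55.4 and 151, against 27.4 to 170.2 in the control (2.55, adjusted p = 0.0261, from the authors' deposited table). For Irf1, an interferon regulatory factor, the highest held between 1617 and 2002 and the lowest between 97.1 and 404, against 86.2 to 278 (2.29, adjusted p = 0.0497, from the authors' deposited table). Socs3, a feedback inhibitor of cytokine signals, did not pass (1.91, adjusted p = 0.44, from the authors' deposited table).

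Acute phase proteins, which hepatocytes secrete under inflammation, showed 2 rises among 29 genes (median 0.54). All 4 resolved members were highest in rapamycin library A, and their median log2 ratio was 2.17 with it and -0.26 without it. Against the mean of the metformin and TM5614 groups the median of the 29 genes was 0.01. Lcn2, an iron-scavenging lipocalin, rose from 79.3 to 981 normalized counts by the authors' deposited table (3.63, adjusted p = 0.0388). In each possible division all 3 rapamycin libraries of Lcn2 exceeded the highest control library (112): the lowest held between 148 and 602 and the highest between 1502 and 2389. Library A was the highest in 2 of the 4 divisions of Lcn2. Steap4, a metalloreductase, rose from 1873 to 7179 (1.94, adjusted p = 0.0136, from the authors' deposited table). By the same table Steap4 had 7752 under TM5614 (2.05, adjusted p = 0.00322), 2737 under metformin and 1310 under caloric restriction. Lcn2 had 746 under TM5614 (3.23, adjusted p = 0.0447), 523 under metformin and 285 under restriction. Saa1 (2.71, adjusted p = 0.0515), Saa2 (3.11, adjusted p = 0.0848) and haptoglobin, Hp (0.61, adjusted p = 0.334), did not pass by the authors' deposited table. Saa3 held 40.7, 28.4 and 12.6 against 1087, 22.4 and 24, with library A alone high. The group means of Saa1 in the other compounds were 7622 under metformin and 6855 under TM5614, beside 696 in the control and 4545 under rapamycin by the authors' deposited table, and the mean under caloric restriction was 291.

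Neutrophil markers moved with the same library. S100a9 held 87.9, 25.4 and 16.8 in the control and 188, 22.4 and 22 under rapamycin, and S100a8 held 60.5, 36.5 and 12.6 against 113, 15.6 and 22. The 4 neutrophil markers with a mean of at least 10 summed to 379 in rapamycin library A and to 63.2 and 68.1 in B and C. In the control libraries they summed to between 43.1 and 190. None was called, and their median log2 ratio was 0.58 with library A and -0.72 without it. The list held 13 markers, Mpo, Elane and Ly6g among them. Only 5 of the 13 were in the authors' deposited table, so a reading as neutrophils rests on few markers. Whether neutrophils had a part in the cytokine-induced genes was not tested. Among interferon response genes 1 of 34 rose, Irf9 (186, 145 and 182 against 228, 258 and 294; 0.60, adjusted p = 0.0108, from the authors' deposited table), and the list's median was 0.15, or 0.14 over its 24 resolved genes with or without library A.

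NF-kappaB binds kappaB elements and STAT factors bind TTCNNNGAA. In 35 RefSeq promoters of 29 members, searched as above after the values were seen, the kappaB element was in 15 (42.9%, against 8.46% of all promoters) and the STAT element in 6 (17.1%, against 8.3%). The list was written by hand as genes induced by cytokines and NF-kappaB, so such an excess follows in part from its composition. It is no result about the response to rapamycin. The 250 bases before the start of Cxcl10 (chr5:92348890-92349139, minus strand), of the first Nfkb2 start (chr19:46304487-46304736, plus strand) and of the first Irf1 start (chr11:53769764-53770013, plus strand) are shown with matches in capitals, as genes of this list that carry several. In Cxcl10 the capitals are kappaB matches, the second of them a pair that overlap; in Nfkb2 and Irf1 the leftmost capitals are the STAT match and the others kappaB.
Cxcl10: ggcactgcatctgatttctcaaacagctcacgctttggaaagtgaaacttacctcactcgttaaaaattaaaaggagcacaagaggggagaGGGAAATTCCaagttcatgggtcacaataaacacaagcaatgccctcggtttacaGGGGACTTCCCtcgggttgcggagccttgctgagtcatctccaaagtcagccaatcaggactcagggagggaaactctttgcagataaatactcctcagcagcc
Nfkb2: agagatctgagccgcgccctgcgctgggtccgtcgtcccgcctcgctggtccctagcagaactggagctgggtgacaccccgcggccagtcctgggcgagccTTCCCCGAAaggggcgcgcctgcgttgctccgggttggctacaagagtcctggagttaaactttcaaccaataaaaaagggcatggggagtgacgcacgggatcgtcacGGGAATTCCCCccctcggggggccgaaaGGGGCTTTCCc
Irf1: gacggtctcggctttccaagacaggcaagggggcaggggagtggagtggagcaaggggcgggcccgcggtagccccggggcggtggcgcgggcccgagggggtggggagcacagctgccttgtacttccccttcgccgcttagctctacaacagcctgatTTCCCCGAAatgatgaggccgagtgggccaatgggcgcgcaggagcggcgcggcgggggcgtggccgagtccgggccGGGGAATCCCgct
A match describes these letters only.

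**Figure D5:**
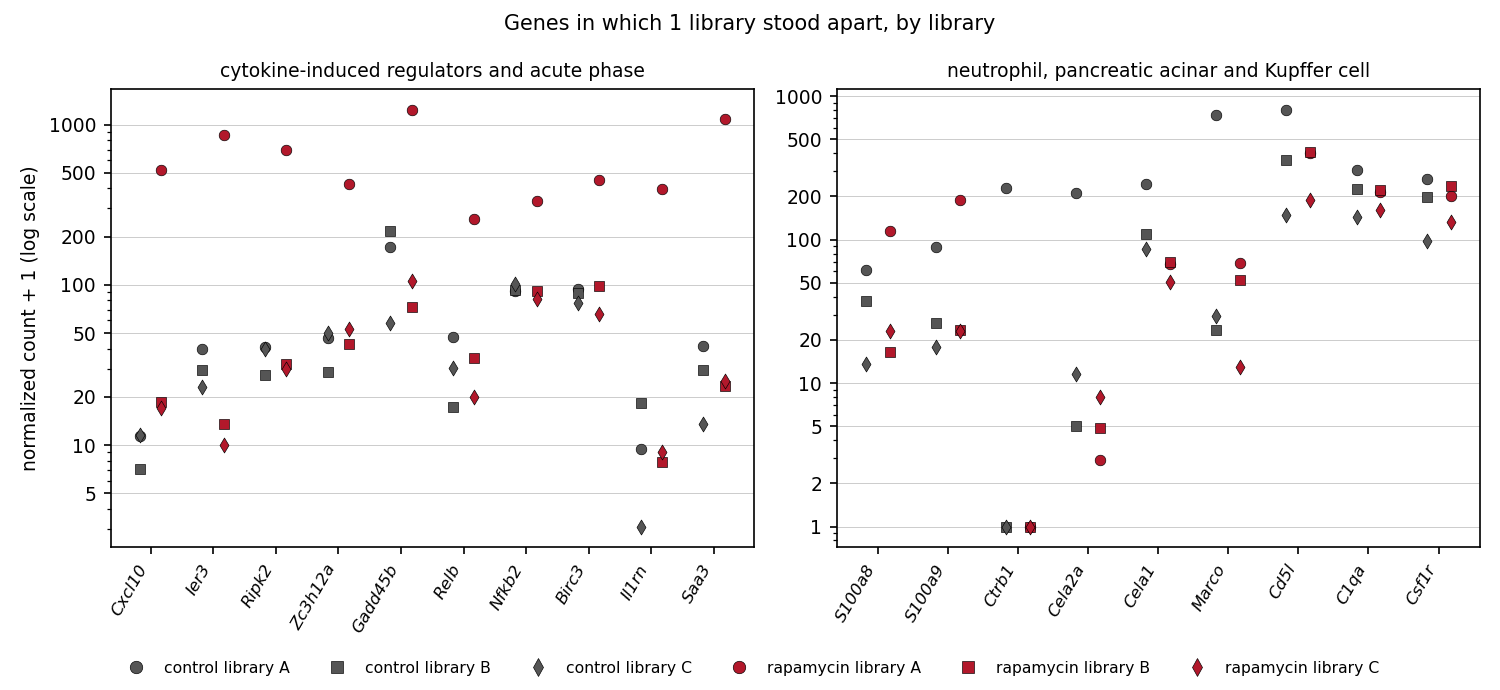
Normalized counts plus 1 on a log axis are shown for each library behind the control mean (grey) and the rapamycin mean (red). Rapamycin library A (red circles) lies above all other libraries for the cytokine-induced and neutrophil genes, as for Cxcl10 at 517, and control library A (grey circles) does so for Ctrb1, Cela2a and Marco.

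Stress and cell cycle genes gave few calls. Among 26 chaperone and unfolded protein response genes 1 rose, Hyou1, a chaperone of the endoplasmic reticulum (0.76, adjusted p = 0.0293, from the authors' deposited table); against the mean of the metformin and TM5614 groups its log2 value was -0.03. None of 22 p53 and senescence genes passed; Cdkn1a, the p21 cell cycle inhibitor, had 1.96 (adjusted p = 0.0784) by the authors' deposited table, and Gadd45a held 38.8, 102 and 79.8 against 799, 94.3 and 68.1, again with library A high. Of 15 cell cycle genes 5 had no adjusted p and none of the others passed (median -0.47); 5 of the 15 lay lower in all rapamycin libraries, beside 9.01% of all resolved genes, and 1 higher. Ccnd1, cyclin D1, held 324, 195 and 131 against 68.3, 107 and 105 (-1.22, adjusted p = 0.0583, from the authors' deposited table). No gene of 20 in iron handling, 21 in cytosolic heat shock, 20 in complement, 19 in glucocorticoid response or 22 in immediate early response was called, and of 25 in coagulation only F7 fell (-0.40, adjusted p = 0.0304, from the authors' deposited table).

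Further calls of at least 1 on the log2 scale, with a higher group mean of at least 50, belonged to none of the functional lists. Setdb2, a histone methyltransferase gene (chromosome 14, 59402009 to 59440884), held 261, 234 and 138 in the control and 101, 84.6 and 74.1 under rapamycin. Its log2 fold changes by the authors' deposited table were -1.29 for rapamycin (adjusted p = 0.0022), -1.21 for metformin, -1.11 for TM5614 and -0.96 for caloric restriction. All 4 values use the same control, and the metformin libraries held 86.1, 82.6 and 105, which overlapped with the rapamycin libraries. Spata2l, related to a regulator of deubiquitination, held between 309.9 and 690.2 in the control and between 95.2 and 246 under rapamycin (-1.78, adjusted p = 0.0395, from the authors' deposited table). Clec2h, a C-type lectin, held 54.8, 45.6 and 55.7 against 11.5, 20.4 and 9.01 (-1.93, adjusted p = 0.00274, from the authors' deposited table).

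Tbc1d30, Gpr110, Adam11, Slc43a2, Spsb2 and Cyp4b1 fell with log2 fold changes between -1.44 and -1.03 by the authors' deposited table. Slc43a2 is an amino acid transporter. In all 6 the rapamycin libraries lay below the control libraries, beside 9.01% of all resolved genes. The same held for 42 of the 43 resolved calls that fell, so it follows largely from picking called genes. Among the rises, the vesicular glutamate transporter gene Slc17a8 held 84.1, 131 and 216 in the control and 334, 436 and 285 under rapamycin (1.29, adjusted p = 0.0041, from the authors' deposited table). Lpar6, a lysophosphatidic acid receptor, held 54.8, 68 and 109 against 213, 151 and 122 (1.07, adjusted p = 0.00514, from the authors' deposited table). Gbp6, a guanylate-binding protein, held 87, 60.9 and 54.6 against 158, 140 and 120.1 (1.04, adjusted p = 0.0304, from the authors' deposited table). Amotl2, which tethers the growth regulator YAP, rose from 157 to 389 (1.31, adjusted p = 0.0186, from the authors' deposited table). Unlike those of most resolved cytokine-induced genes, the rises of Slc17a8, Lpar6 and Gbp6 did not rest on library A. Without it the log2 ratio was 1.32 for Slc17a8, 0.81 for Lpar6 and 0.94 for Gbp6. Amotl2 had 2 possible divisions, with library A highest in both; its highest rapamycin library held between 495 and 697 and its lowest between 11.7 and 324, against 77.1 to 289.9 in the control.

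Set beside the other interventions, several of these genes had other values. Dbp, lowest under rapamycin with a mean of 34.2, had means of 177 in the control, 629.7 under metformin, 644 under TM5614 and 544 under caloric restriction by the authors' deposited table. Enho was lower than its control mean of 227 in every group, with 64.6 under rapamycin, 191 under metformin, 117 under TM5614 and 86 under restriction by the authors' deposited table. Igfbp2 had 2822 under rapamycin and 8962 under restriction, beside 6161 in the control, by the authors' deposited table. The genes were picked by their calls under rapamycin, the comparisons share their control libraries, and no difference between interventions was tested.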

How the data were processed

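The submitters' processing notes name HISAT2 2.0.5 and mm10. The counter, its strand setting and its annotation were not given in the sources used here. Per the file headers, the authors' table holds a normalized signal per group and, for each intervention, its log2 fold change and adjusted p-value. The values show that the signal is a mean of counts divided by size factors, and the table's name says that the authors made it with DESeq2. A second table of 18 columns, whose names match no label, and a column for a compound that no label names were not used.

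Members, gene lists and rules were chosen with earlier results of these data known. Genes named are those with an adjusted p under 0.05, a log2 fold change of at least 1 in size and a higher group mean of at least 50; up to 6 called members of each of 60 lists by smallest adjusted p; 3 members by size for lists with no call; and set genes of the mTOR, glucose, lipid, clock and acute phase pathways. A few genes under this rule are not reported here. Others are said to be chosen after their values were seen, which also holds for members given by library.

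The planned tests on labelled libraries could not be made. Instead, chosen after seeing the data, group means were split into whole reads of 3 libraries (means up to 500 where 1 combination existed, up to 1000 as ranges), with Python 3.11.15, numpy and pandas. Checked on counts simulated around the control means, up to a lower limit than the 500 used, every gene with 1 combination was split correctly. The rapamycin group, whose size factors lie closer together, and higher means were not simulated. limma 3.58.1 (R 4.3.3), with a trend, was fitted to log2(value + 1) of these derived values. No SD is printed, since the libraries carry no label. The depth of each library is unknown; only group totals of normalized counts could be formed. Of the symbols, 10901 match GENCODE vM21 and 18 had been turned into dates and are not named.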

Additional observations from a re-analysis of the deposited data

How the results depend on the processing

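Raised genes numbered 20 at an adjusted p under 0.01, 132 under 0.1, 17 with a log2 fold change of at least 1 and 0 with limma on the libraries behind the means, against 74. Lowered genes numbered 24, 119, 25 and 0 in the same order, against 70. Without a filter on low values, with a mean of at least 50 and after rescaling or centring, both counts stayed within 1.5 times. Leaving out 1 library at a time, an alternative chosen after seeing the data, limma raised 0 to 1 genes and lowered 0 to 5, the most without control library C. The median of the cholangiocyte list, -0.41, was 0.07 over genes with a mean of at least 50. Against the mean of the metformin and TM5614 groups, also chosen after seeing the data, list medians changed sign to -0.09 for ribosome biogenesis, -0.09 for chaperones of the endoplasmic reticulum, -0.11 for heat shock, 0.07 for Kupffer cells, 0.13 for cholangiocytes and 0.26 for platelets; of medians within 0.1 of 0, nucleotide synthesis went to -0.10, glucose production and insulin targets to 0.12 and bile acids to 0.09; the acute phase median went from 0.54 to 0.01, and log2 values changed sign to 0.16 for Agxt and -0.03 for Hyou1; the cause was not tested. No paired analysis was possible because the columns carry no replicate number. Most genes with means over 500 could not be checked by library, Crat, Vnn1 and Lrrc59 being among the exceptions, and no leave-one-out was made for the authors' test.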
